A study of Mus musculus with 6 samples.

Results

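Chemokine ligands and their receptors were followed in dystrophin-deficient (mdx) mouse skeletal muscle after anti-CD25 antibody (clone PC61) or rat IgG. The 57 genes were chosen by symbol, as all chemokine ligands (Ccl, Cxcl, Cx3cl1, Xcl1), their signalling receptors (Ccr, Cxcr, Cx3cr1, Xcr1) and the atypical receptors (Ackr, Ccrl2) that have a probe set carrying their symbol alone. They are 57 of 19752 genes measured in this way and comprise 34 ligands, 18 signalling receptors and 5 atypical receptors, read from 61 probe sets. Ccl19 had 4 probe sets and Ccl25 had 2, and for both the probe set with the highest mean was used. Another 3 probe sets carrying several symbols of the family were left out.

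Each group held 3 arrays with 1 muscle RNA sample each. All mice carried the mdx mutation and received 2 intraperitoneal injections, on days 17 and 20 of age, of PC61, a rat antibody against the interleukin-2 receptor alpha chain (CD25), or of rat IgG as the control. Muscle was taken 7 days after the second injection, which is day 27 of age, whereas the labels give an age of 6 weeks (42 days). The labels name neither the muscle nor the animal behind each array, so p-values measure the spread between these arrays, which may be technical. In addition, bulk muscle RNA cannot tell fewer cells of a type from less RNA per cell. The labels call all samples male, yet Xist, which is transcribed from the inactive X chromosome of females, was high on 4 arrays (rat IgG 1 and 2, anti-CD25 1 and 2; 11.77 to 11.94 log2 units) and low on rat IgG 3 and anti-CD25 3 (5.48 and 5.49). The Y-linked gene Eif2s3y went the other way, at 3.47 to 3.77 on the high-Xist arrays and at 9.16 and 9.22 on the low-Xist arrays. Kdm5d and Uty, also Y-linked, did likewise. By these genes the high-Xist arrays read as female and the low-Xist arrays as male, against the labels. Differences are therefore also given within the 4 high-Xist arrays and between the 2 low-Xist arrays. The array medians ran from 149.8 to 151.5 intensity units and the lower quartiles from 51.2 to 57.7. The 6 fibre markers Ckm, Acta1, Myh4, Mb, Tnnt3 and Myh1 summed to 58563 to 61308 intensity units per array. Of the targeted cells' markers, Foxp3 differed by -0.092 (SE 0.099) and Il2ra, which encodes CD25, by -0.0049 (SE 0.094).

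Chemokines are small secreted proteins that guide leukocytes along gradients by binding G protein-coupled receptors on the cell surface. Inflammatory members such as Ccl2 and the Ccr1 ligands draw monocytes and other myeloid cells into damaged tissue, whereas homeostatic members such as Cxcl12 and Ccl19 position cells in bone marrow and lymphoid organs. Atypical receptors bind chemokines without driving G protein signalling and so remove or present them. In dystrophic muscle, Ccl2 acting on Ccr2 is known for the entry of inflammatory monocytes. More generally, Ccl22 acting on Ccr4 is known for attracting regulatory T cells.

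The largest difference among the 57 genes was in Ccr1, a receptor of monocytes, macrophages and neutrophils, whose mean was 1.67-fold higher with anti-CD25. Its ligands Ccl6 and Ccl9 were higher by 0.25 and 0.27 log2 units, whereas Ccl4, Ccrl2, Xcr1 and Ccr7 lay lower on every anti-CD25 array than on any rat IgG array. None of these differences passed limma's test with Benjamini-Hochberg adjustment over all genes at 0.05: the count was 0 of 57 genes, beside 0% of all genes, and the smallest adjusted p of the 57 was 0.75. At an unadjusted p under 0.05, 5 of the 57 genes were found, 1 higher (Ccr1) and 4 lower, where the share over all genes was 6.28%, with 2.3% higher and 3.98% lower. The groups did not overlap in 4 genes, all lower, which is 7.02% of the 57 beside 11.7% of all genes (4.28% higher and 7.46% lower). The adjusted count equals the share over all genes and the count without overlap is below it. The unadjusted count is above it in this fit, through the lower genes, and this difference was not tested. It depended on the fit. A variance trend with robust fitting gave 2 of the 57, while the count over all genes rose from 1240 to 1346. Array weights gave 9 of the 57, beside 2254 of all genes. High or low Xist as a block gave 6 of the 57, beside 1212 of all genes. In all, 20 genes were higher and 37 lower with anti-CD25, so that 35.1% were higher where 41.1% of all genes were higher and 58.9% lower. This share went with intensity. Of the 19 members among the dimmest 30% of genes, 4 were higher (21.1%), beside 23.4% of all genes in that range. Of the other 38 members, 16 were higher (42.1%). The median difference was -0.026 for the 57 genes and -0.026 for all genes. After a second quantile normalization 29 of the 57 were higher, and of all genes 9411 rather than 8121. The moderated 95% intervals reached a median of 0.28 log2 units to each side of the difference (0.18 to 0.73). Of the 57 genes, 12 lay below the lower quartile on all 6 arrays, namely Ccl1, Ccl26, Ccl28, Ccr1l1, Ccr4, Ccr8, Ccr9, Cxcl15, Cxcl2, Cxcl3, Cxcr5 and Cxcr6.

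**Figure D1:**
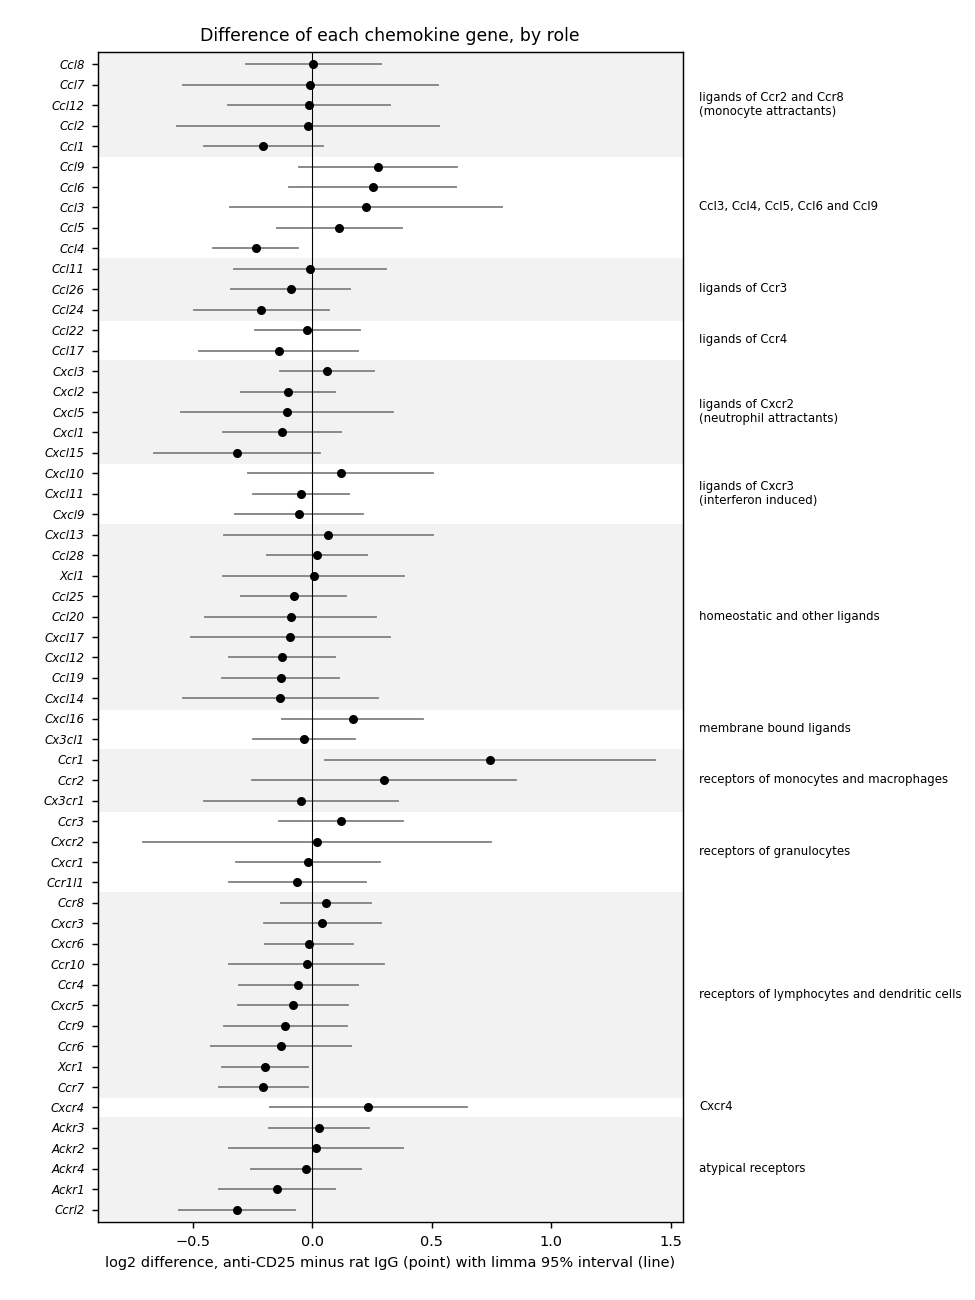
Difference in log2 intensity (anti-CD25 minus rat IgG, x axis) for the 57 chemokine and receptor genes, with limma's moderated 95% interval as a horizontal line and genes ordered within their roles. Ccr1 stands apart at 0.74, and the intervals of Ccl4, Ccrl2, Ccr7 and Xcr1 lie below 0.

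Ccr1 binds Ccl3, Ccl5, Ccl6 and Ccl9 in the mouse. On the rat IgG arrays 1, 2 and 3 its log2 level was 5.97, 6.28 and 7.36, and on the anti-CD25 arrays 1, 2 and 3 it was 7.04, 7.32 and 7.49. Rat IgG 1 and 2 were low, while rat IgG 3 lay among the anti-CD25 arrays, so the groups overlapped. The means were 6.54 ± 0.73 (SD, n = 3) and 7.28 ± 0.23 (SD, n = 3), a difference of 0.74 (SE 0.30, 95% interval 0.051 to 1.43, limma unadjusted p = 0.0381, adjusted p = 0.75). The difference was 1.05 within the 4 high-Xist arrays and 0.13 between the 2 low-Xist arrays. Without rat IgG 3 it was 1.15 and the only one of the 57 genes past the threshold (limma adjusted p = 0.0462), where 0.0354% of all genes passed. In that fit 10 of the 57 had an unadjusted p under 0.05, beside 15.3% of all genes. When these 5 arrays were quantile normalized again it was 1.23 and no longer past the threshold (limma adjusted p = 0.113). Without rat IgG 1 it was 0.46.

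Ccl9 and Ccl6 encode CC chemokines that are found in rodents and made by myeloid cells. The log2 level of Ccl9 was 9.51, 9.70 and 10.12 with rat IgG and 9.998, 10.02 and 10.14 with anti-CD25. As in Ccr1, rat IgG 1 and 2 were the low arrays and rat IgG 3 lay among the anti-CD25 arrays. The Ccl9 means were 9.78 ± 0.31 and 10.05 ± 0.075 (SD, n = 3 each), with a difference of 0.27 (SE 0.15, 95% interval -0.055 to 0.60) whose interval includes 0. Ccl6 had log2 levels of 10.29, 10.39 and 10.85 with rat IgG and of 10.58, 10.77 and 10.95 with anti-CD25. Here too rat IgG 1 and 2 were lowest and anti-CD25 3 was highest, with overlapping groups. The Ccl6 difference was 0.25 (SE 0.15, 95% interval -0.097 to 0.60), and neither ligand passed the test (limma adjusted p = 0.75 for both). The differences of Ccl9 and Ccl6 were 0.41 and 0.33 within the high-Xist arrays, and 0.014 and 0.096 between the low-Xist arrays. Without rat IgG 1 they were 0.14 for both, and without rat IgG 3 they were 0.45 and 0.42.

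Ccr1 and these ligands gave the same order of the 6 arrays. Across the arrays Ccl9 and Ccr1 correlated at Pearson r = 0.989 (exact permutation p = 0.00139, adjusted over 32 pairs 0.0222) and Spearman rho = 1 (exact permutation p = 0.00278, adjusted 0.0444). For Ccl6 and Ccr1, r was 0.969 and rho was 1, with the same exact permutation and adjusted p-values. These were the only pairs of the 32 to pass at 0.05, by both measures. The pair plots show rat IgG 1 and 2 apart from the other 4 arrays at low values of both genes. Without rat IgG 1 and 2, which were the arrays farthest from the median of each ligand, r was 0.842 for Ccl9 and 0.989 for Ccl6 over 4 arrays. After removal of the group means, r was 0.985 for Ccl9 and 0.967 for Ccl6, so the relation was as strong within the groups. Within the 4 high-Xist arrays r was 0.984 and 0.983. The p-values rest on 6 arrays and 720 orderings.

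**Figure D2:**
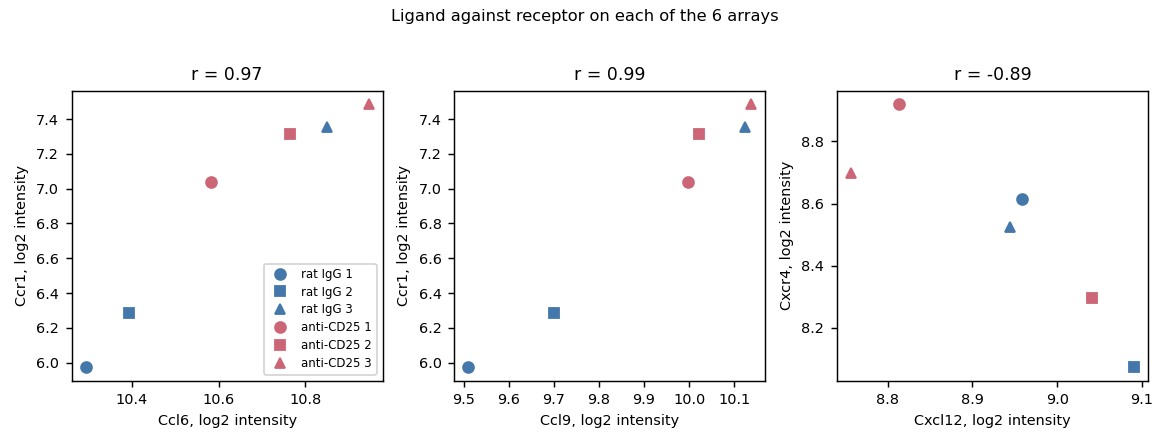
Log2 intensity of a receptor against that of its ligand for the 3 pairs with the smallest permutation p, 1 point per array, coloured by group and shaped by array number. Ccr1 increases with Ccl6 (r 0.969) and with Ccl9 (r 0.989), and Cxcr4 decreases with Cxcl12 (r -0.889).

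The promoters of this trio are shown because the genes followed 1 order over the arrays and because Ccl6 and Ccl9 are adjacent protein-coding genes on chromosome 11. The 200 bases before each start were taken from RefSeq (GRCm38.p6), all on the minus strand, at chr11:83593088-83593287 for Ccl6, chr11:83578637-83578836 for Ccl9 and chr9:123968693-123968892 for Ccr1. In Ccl6 and Ccl9 the capitals mark their longest shared run of 13 bases, and in Ccr1 they mark a match to a loose form of the NF-kB motif, GGG and CC with 5 bases of any kind between them. Ccl9 holds such a match too, on the opposite strand at -35 to -26 from the start, which is left in lower case.
Ccl6: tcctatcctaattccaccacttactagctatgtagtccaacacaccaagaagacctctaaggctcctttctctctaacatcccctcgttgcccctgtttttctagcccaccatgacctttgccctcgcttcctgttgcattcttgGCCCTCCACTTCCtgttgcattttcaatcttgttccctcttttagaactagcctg
Ccl9: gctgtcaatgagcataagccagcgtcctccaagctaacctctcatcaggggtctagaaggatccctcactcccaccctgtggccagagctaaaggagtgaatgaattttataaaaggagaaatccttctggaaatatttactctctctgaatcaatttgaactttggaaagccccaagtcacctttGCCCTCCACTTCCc
Ccr1: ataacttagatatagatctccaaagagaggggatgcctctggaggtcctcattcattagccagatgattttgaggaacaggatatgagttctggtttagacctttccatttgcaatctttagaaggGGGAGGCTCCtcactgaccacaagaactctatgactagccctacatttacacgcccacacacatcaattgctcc
The run ends 43 bases before the start in Ccl6 and 2 bases before it in Ccl9. On either strand it was present in 6 of 32851 mouse promoter windows of 300 bases (0.0183%), among them no other promoter of the 57 genes. The run was picked after the sequences were seen. The longest run that Ccr1 shared was 8 bases with Ccl6 and 7 bases with Ccl9. Promoter windows, from 250 bases before to 50 after a start, were found for 43 of the 57 genes (47 windows). The NF-kB form, on either strand, was in 55.3% of these and in 50.8% of all promoters. TTCNNNGAA, the STAT motif, was in 8.51% and 8.3%. Cxcl1, Cxcl2 and Cxcl3, neutrophil attractants, each held the match GGGAATTTCC. These matches describe the letters only.

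Ccl3, Ccl4 and Ccl5 are inflammatory CC chemokines of macrophages and lymphocytes, grouped here with Ccl6 and Ccl9. Ccl3 had log2 levels of 8.43, 7.88 and 9.06 with rat IgG and 8.52, 8.64 and 8.89 with anti-CD25. Its highest and lowest arrays were both rat IgG arrays, so the groups overlapped fully, and the difference was 0.23 (SE 0.25). It was 0.42 within the high-Xist and -0.17 between the low-Xist arrays, and -0.062 without rat IgG 2 and 0.53 without rat IgG 3. Ccl3 and Ccr1 correlated at r = 0.764 (exact permutation p = 0.0736, adjusted 0.589; r = 0.805 without rat IgG 2 and 3) and rho = 0.886 (exact permutation p = 0.0333, adjusted 0.267). Ccl5, which also attracts T cells, was at 7.69, 7.80 and 8.01 with rat IgG and at 8.10, 7.78 and 7.95 with anti-CD25. Anti-CD25 1 was the highest array and the groups overlapped, with a difference of 0.11 (SE 0.11) that was -0.062 between the low-Xist arrays. Ccl4 went the other way. Its log2 level was 6.28, 6.23 and 6.14 with rat IgG and 5.95, 5.97 and 6.02 with anti-CD25. Every anti-CD25 array lay below every rat IgG array. The Ccl4 means were 6.22 ± 0.068 and 5.98 ± 0.035 (SD, n = 3 each), and the difference of -0.24 (SE 0.079, 95% interval -0.42 to -0.059) did not pass after adjustment (limma unadjusted p = 0.0148, adjusted p = 0.75). It was -0.29 within the high-Xist and -0.13 between the low-Xist arrays. Of these 5 ligands (Ccl3, Ccl4, Ccl5, Ccl6 and Ccl9), 4 were higher and the median difference was 0.23, beside -0.026 for all genes. Between the low-Xist arrays 2 of the 5 were higher.

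Markers of macrophages, which carry Ccr1 and Ccr2, are given beside these genes. All 13 measured of 14 listed macrophage markers lay above their rat IgG level after anti-CD25, on average by 0.34 (exact two-sided permutation p = 0.2, where 3 against 3 arrays cannot go below 0.1). Of all genes, dim ones included, 41.1% were higher. The markers' mean difference was 0.41 within the high-Xist arrays and 0.23 without rat IgG 2. Between the low-Xist arrays it was 0.20, and 10 of the 13 markers were higher. Their mean deviation was -0.14, -0.38 and 0.012 on the rat IgG arrays and 0.33, -0.038 and 0.22 on the anti-CD25 arrays. Their summed intensity ran from 14533 to 17839.6 with rat IgG and from 17297.2 to 23605.7 with anti-CD25. The rat IgG arrays at -0.14 and -0.38 were the lowest for the markers and, in reverse order, for Ccr1. Anti-CD25 1 was highest for the markers, whereas anti-CD25 3 was highest for Ccr1. The part of these markers in the Ccr1, Ccl6 and Ccl9 differences was not tested.

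**Figure D3:**
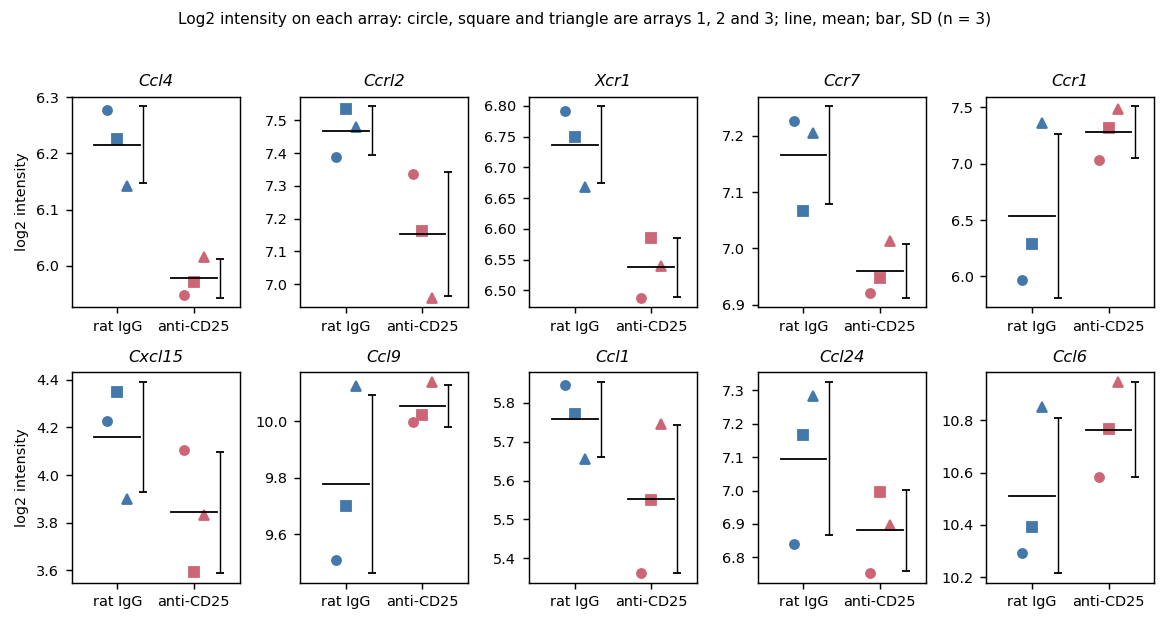
Log2 intensity on each of the 6 arrays (circle, square and triangle for arrays 1, 2 and 3, with the group mean as a line and the SD, n = 3, as a bar) for the 10 genes with the smallest unadjusted limma p. In Ccl4, Ccrl2, Xcr1 and Ccr7 the anti-CD25 points all lie below the rat IgG points, while in Ccr1 rat IgG 3 (7.36) lies among the anti-CD25 arrays.

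Ccrl2, Xcr1 and Ccr7 were the other genes whose groups did not overlap. Ccrl2 is an atypical receptor that binds chemerin and presents it to cells with the chemerin receptor. Its log2 level was 7.39, 7.54 and 7.48 with rat IgG and 7.34, 7.16 and 6.96 with anti-CD25. All anti-CD25 arrays lay below all rat IgG arrays, although rat IgG 1 and anti-CD25 1 were close. The difference was -0.32 (SE 0.11, 95% interval -0.56 to -0.072, limma unadjusted p = 0.017, adjusted p = 0.75), with -0.21 within the high-Xist and -0.52 between the low-Xist arrays. Xcr1 is the receptor of cross-presenting dendritic cells for Xcl1. It was at 6.79, 6.75 and 6.67 with rat IgG and at 6.49, 6.58 and 6.54 with anti-CD25, with a difference of -0.20 (SE 0.079, limma unadjusted p = 0.0332, adjusted p = 0.75). All anti-CD25 arrays lay below all rat IgG arrays. Ccr7 guides T cells and mature dendritic cells to lymph nodes. Its levels were 7.23, 7.07 and 7.20 with rat IgG and 6.92, 6.95 and 7.01 with anti-CD25, with a difference of -0.21 (SE 0.082, limma unadjusted p = 0.0349, adjusted p = 0.75). Again all anti-CD25 arrays were below all rat IgG arrays. Xcr1 and Ccr7 were lower in both Xist strata, by -0.23 and -0.21 within the high-Xist and by -0.13 and -0.19 between the low-Xist arrays. The 6 dendritic cell markers differed on average by 0.047 (exact permutation p = 0.3), with summed intensities of 757.9 to 810.4 with rat IgG and 788.6 to 865.6 with anti-CD25, and their part in these values was not tested.

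Ccr4, Ccr8 and Cxcr3 are other receptors of lymphocytes, and Ccr4 and Ccr8 are known on regulatory T cells, which carry CD25. Ccr4 was at 5.55, 5.41 and 5.15 with rat IgG and at 5.25, 5.36 and 5.33 with anti-CD25. The anti-CD25 arrays lay inside the rat IgG range, with a difference of -0.059 (SE 0.11) that was 0.024 after a second quantile normalization. Ccr8 was at 4.39, 4.23 and 4.22 with rat IgG and at 4.32, 4.32 and 4.37 with anti-CD25, again with overlap and a difference of 0.057 (SE 0.083). Both were dim, below the lower quartile on all arrays. Ccl22, the Ccr4 ligand of macrophages and dendritic cells, was at 5.90, 6.20 and 6.03 with rat IgG and at 5.94, 6.05 and 6.06 with anti-CD25. The difference was -0.021 (SE 0.097), with full overlap. Ccl17, the other Ccr4 ligand, differed by -0.14. Ccl1, a Ccr8 ligand, was at 5.85, 5.77 and 5.65 with rat IgG and at 5.36, 5.55 and 5.74 with anti-CD25. Its difference of -0.20 (SE 0.11, limma unadjusted p = 0.0971, adjusted p = 0.75) came with overlapping groups and was 0.090 between the low-Xist arrays. Of the 10 receptors of lymphocytes and dendritic cells, 2 were higher, with a median of -0.071. After a second quantile normalization 6 were higher. The 5 regulatory T cell markers were all lower, beside 58.9% of all genes, by 0.10 log2 units on average (exact permutation p = 0.1). Their summed intensities were 483.7 to 504.5 with rat IgG and 450.4 to 488.7 with anti-CD25. Their mean difference was -0.12 within the high-Xist and -0.070 between the low-Xist arrays, where 2 of the 5 were higher. After a second quantile normalization 1 was higher. The B cell markers (-0.16) and the endothelial markers (-0.093) also had an exact permutation p of 0.1. The 6 measured of 8 listed T cell markers differed by -0.076 on average (exact permutation p = 0.6), with -0.17 within the high-Xist and 0.12 between the low-Xist arrays.

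The monocyte attractants did not separate the groups. Ccl2, the chief ligand of Ccr2, was at 9.47, 9.56 and 10.28 with rat IgG and at 9.32, 10.08 and 9.86 with anti-CD25. The highest array was rat IgG 3 and the lowest anti-CD25 1. The Ccl2 means were 9.77 ± 0.45 and 9.75 ± 0.39 (SD, n = 3 each), with a difference of -0.017 (95% interval -0.57 to 0.53). It was 0.19 within the high-Xist arrays and -0.42 between the low-Xist arrays. Ccl7, Ccl8 and Ccl12, related ligands of the same cluster on chromosome 11, differed by -0.0096, 0.0044 and -0.013. All 4 were highest on rat IgG 3. Ccr2 itself was at 9.11, 8.32 and 9.19 with rat IgG and at 9.58, 8.89 and 9.06 with anti-CD25. Anti-CD25 1 was highest and rat IgG 2 lowest, as for the macrophage markers. Of the other 4 arrays, both anti-CD25 arrays lay below both rat IgG arrays, against the direction of the mean difference. The Ccr2 difference was 0.30 (SE 0.24, 95% interval -0.25 to 0.85), with 0.52 within the high-Xist and -0.13 between the low-Xist arrays, and leaving out rat IgG 2 gave 0.025, and leaving out anti-CD25 1 gave 0.098. Ccl2 and Ccr2 correlated at r = -0.109 and rho = -0.257 (exact permutation p = 0.857 and 0.658, adjusted 0.921 and 0.81; r = 0.198 without anti-CD25 1 and rat IgG 3).

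Cx3cr1 marks patrolling monocytes and tissue macrophages, and Cx3cl1 is its membrane-bound ligand. Cx3cr1 was at 8.72, 8.26 and 8.38 with rat IgG and at 8.75, 8.06 and 8.41 with anti-CD25, with a difference of -0.048 (SE 0.18). Array 2 was the lowest in both groups, and the groups overlapped fully. Cx3cl1 was at 7.73, 7.66 and 7.55 with rat IgG and at 7.47, 7.71 and 7.66 with anti-CD25, with a difference of -0.034 (SE 0.094). Cxcl16, the other membrane-bound ligand, differed by 0.17 and its receptor Cxcr6 by -0.013.

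Rat IgG 3 was the highest of the 6 arrays in 18 of the 57 genes (31.6%, beside 17.5% of all genes), and 17 of these 18 were ligands. They were all 3 Cxcr3 ligands, 4 of the 5 ligands of Ccr2 and Ccr8, 3 of the 5 Cxcr2 ligands, Ccl11 and Ccl24 of the 3 Ccr3 ligands, Ccl3, and 4 of the 9 homeostatic and other ligands. The remaining gene was Ackr1, the Duffy receptor of venules and red cells. The 9 measured immediate early and heat shock genes had their highest mean deviation on the same array, at 0.52. The other rat IgG arrays had -0.31 and -0.095, and the anti-CD25 arrays had -0.0025, 0.029 and -0.14. Their part in the ligand values was not tested. Without rat IgG 3, 18 of the 34 ligands were higher with anti-CD25, where 11 were with all arrays.

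**Figure D4:**
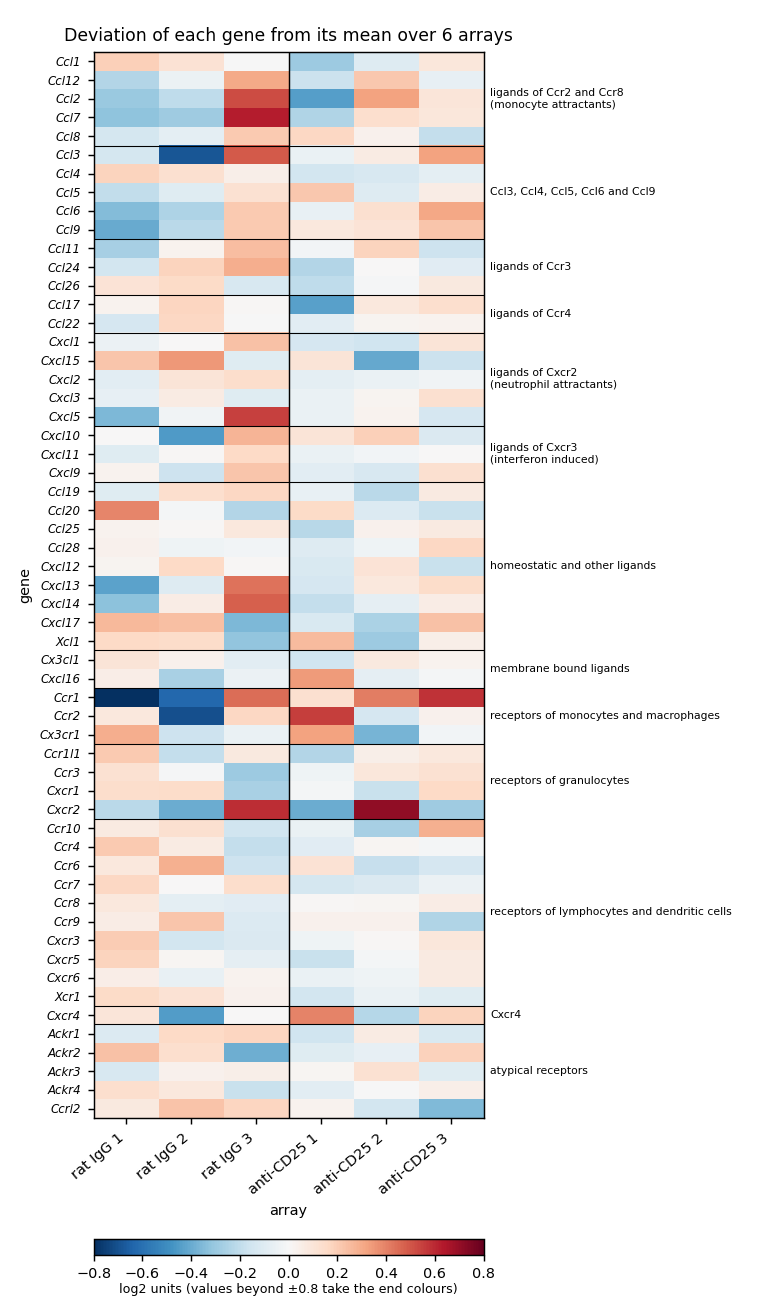
Deviation of each gene's log2 intensity from its mean over the 6 arrays (colour scale in log2 units) for the 57 genes, in rows by role, and the 6 arrays in columns. The rat IgG 3 column holds the highest value of the row for 17 of 34 ligands, and Ccr1 is low in the rat IgG 1 and 2 columns.

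In the neutrophil axis the arrays of a group differed by more than the groups did. Cxcl5, which binds Cxcr2, was at 5.46, 5.79 and 6.36 with rat IgG and at 5.76, 5.84 and 5.68 with anti-CD25. Rat IgG arrays were both lowest and highest, and the difference was -0.11 (SE 0.20). Cxcr2, the neutrophil receptor for these ligands, was at 6.27, 6.08 and 7.07 with rat IgG and at 6.08, 7.19 and 6.20 with anti-CD25. In each group 1 array, rat IgG 3 or anti-CD25 2, stood apart above the other 2. The Cxcr2 difference was 0.018 (SE 0.32), with 0.46 within the high-Xist and -0.87 between the low-Xist arrays. Cxcl15, a lung epithelial chemokine, was at 4.23, 4.35 and 3.90 with rat IgG and at 4.10, 3.59 and 3.83 with anti-CD25. Its difference of -0.32 (SE 0.15, limma unadjusted p = 0.0686, adjusted p = 0.75) is among dim values, with overlapping groups. Cxcl1, Cxcl2 and Cxcl3 differed by -0.13, -0.10 and 0.061. The 8 neutrophil markers differed by -0.018 on average (exact permutation p = 0.9), with summed intensities of 568.6 to 705.6 with rat IgG and 610.9 to 647.3 with anti-CD25.

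The interferon-induced ligands of Cxcr3, which draw T helper type 1 and cytotoxic cells, stayed within the spread. Cxcl10 was at 7.59, 7.13 and 7.86 with rat IgG and at 7.69, 7.77 and 7.47 with anti-CD25. All anti-CD25 arrays fell inside the rat IgG range, with a difference of 0.12 (SE 0.17) that was 0.37 within the high-Xist and -0.38 between the low-Xist arrays. Cxcl9 and Cxcl11 differed by -0.056 and -0.048. Cxcr3 was at 6.93, 6.58 and 6.62 with rat IgG and at 6.70, 6.74 and 6.83 with anti-CD25, with a difference of 0.042 (SE 0.11) and full overlap. The ligands of Ccr3, the eosinophil receptor, were all lower. Ccl24 was at 6.84, 7.17 and 7.28 with rat IgG and at 6.75, 6.99 and 6.90 with anti-CD25, with overlapping groups and a difference of -0.21 (SE 0.12, limma unadjusted p = 0.119, adjusted p = 0.75). Ccl11 and Ccl26 differed by -0.011 and -0.090, and Ccr3 by 0.12. The 4 eosinophil markers were lower by 0.18 on average (exact permutation p = 0.4), with -0.38 within the high-Xist and 0.21 between the low-Xist arrays.

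Cxcl12, made by stromal cells, and its receptor Cxcr4 retain progenitors and leukocytes in tissue. Cxcl12 was at 8.96, 9.09 and 8.94 with rat IgG and at 8.81, 9.04 and 8.76 with anti-CD25. Array 2 was the highest in both groups, and the difference was -0.13 (SE 0.099, 95% interval -0.35 to 0.096). Cxcr4 was at 8.62, 8.07 and 8.52 with rat IgG and at 8.92, 8.30 and 8.70 with anti-CD25. Here array 2 was the lowest in both groups, and the difference was 0.23 (SE 0.18, 95% interval -0.18 to 0.65). Leaving out rat IgG 2 gave 0.068 for Cxcr4. Leaving out anti-CD25 1 gave 0.093, and leaving out anti-CD25 2 gave 0.41. The pair correlated at r = -0.889 (exact permutation p = 0.025, adjusted 0.267) and rho = -0.886 (exact permutation p = 0.0333, adjusted 0.267), and did not pass after adjustment. Without anti-CD25 3 and rat IgG 2, r was -0.977 over 4 arrays, and after removal of group means it was -0.865. The other homeostatic and other ligands differed by -0.13 to 0.066, with a median of -0.090 over all 9. The atypical receptors Ackr1, Ackr2, Ackr3 and Ackr4 differed by -0.15, 0.013, 0.029 and -0.026.

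Of 37 ligand and receptor pairs listed, 32 had both genes measured, from 29 ligands and 17 receptors. Both genes were higher with anti-CD25 in 8 pairs and both lower in 6, while the ligand was lower and the receptor higher in 14 and the reverse held in 4. Pearson r was above 0 in 19 pairs, with a median of 0.14 and a range from -0.89 to 0.99. The sign of the group difference was thus shared in 14 of 32 pairs.

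**Figure D5:**
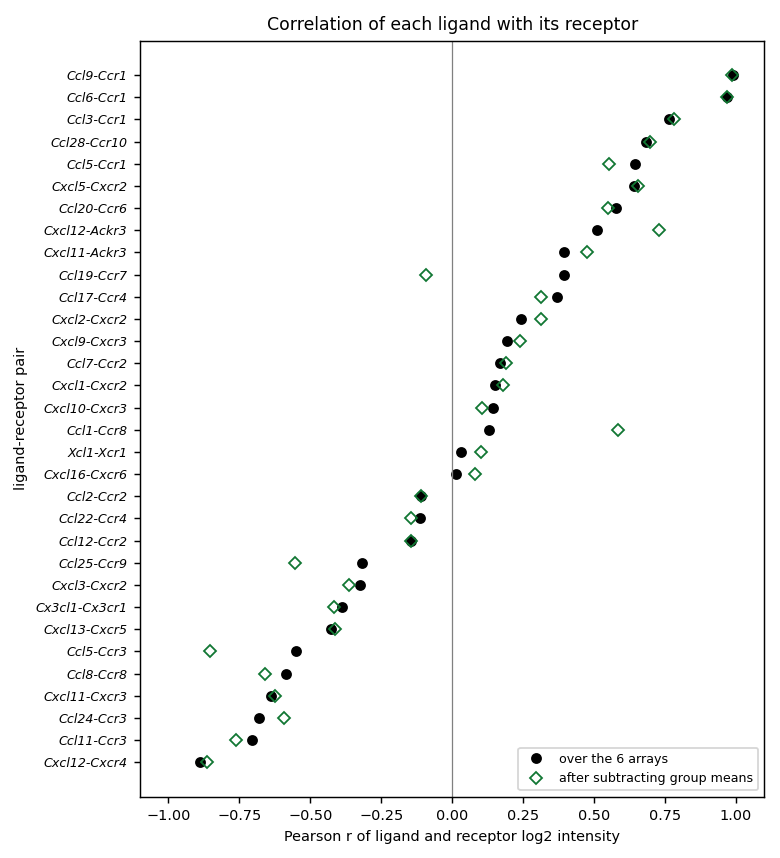
Pearson r across the 6 arrays (x axis) for the 32 ligand and receptor pairs, in rows, as filled circles, and after subtraction of the group means as open diamonds. Ccl9 with Ccr1 and Ccl6 with Ccr1 lie at the right (0.989 and 0.969), Cxcl12 with Cxcr4 lies at the left (-0.889), and the median is 0.14.

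Genes that act beside chemokines were described from 4 lists with 67 measured genes in all, none of which passed limma's adjusted threshold. Of the 31 measured of 34 genes for signalling below the receptors, 30 were higher with anti-CD25 (27 after a second quantile normalization), beside 41.1% of all genes, with a median of 0.14 beside -0.026 for all genes. The dimmest of the 31, Rgs1, lay at percentile 32.3 of mean intensity. Of the dimmest 30% of all genes 23.4% were higher, so the share among brighter genes is above 41.1% and the contrast with them smaller. At an unadjusted limma p under 0.05, 4 of the 31 were higher and 0 lower, where 2.3% of all genes were higher and 3.98% lower. They were Gnai3, a Gi alpha subunit that couples these receptors (0.32, SE 0.097), Pik3r5, a regulator of PI3 kinase gamma (0.31, SE 0.13), Dock2, a Rac activator of leukocytes (0.38, SE 0.16), and Cdc42, a GTPase of cell polarity (0.20, SE 0.080). Rgs1, which shuts off Gi signalling, was the lower one (-0.16, SE 0.13). The list's mean deviation was -0.062, -0.20 and 0.057 on the rat IgG arrays and 0.16, -0.026 and 0.074 on the anti-CD25 arrays (difference 0.14, exact permutation p = 0.2). The difference was 0.20 within the high-Xist arrays, 0.017 between the low-Xist arrays, where 19 of 31 were higher, and 0.071 without rat IgG 2. Its highest and lowest arrays, anti-CD25 1 and rat IgG 2, were those of the macrophage markers, whose part in this list was not tested. Of 16 measured of 19 inducers of chemokine transcription, 5 were higher, beside 41.1% of all genes. Without rat IgG 3, where the list's mean deviation was highest at 0.24, 9 of the 16 were higher. Within the high-Xist arrays 9 were higher, and between the low-Xist arrays 4 were. The following were found over all 6 arrays. At an unadjusted limma p under 0.05, which 2.3% of all genes reached as higher and 3.98% as lower, Tlr4 was higher (0.40, SE 0.12), while the cytokines Tnf (-0.33, SE 0.12) and Il1b (-0.46, SE 0.17), the NF-kB subunit Relb (-0.24, SE 0.088) and the NF-kB inhibitor Tnfaip3 (-0.32, SE 0.086) were lower. Il1b differed by -0.17 within the high-Xist and -1.05 between the low-Xist arrays, and Tlr4 by 0.58 and 0.038. Tnf, Relb and Tnfaip3 were lower in both. Of 11 measured of 14 other attractants and adhesion genes, 8 were higher, beside the same 41.1%, among them the platelet chemokine Pf4 (0.42, SE 0.13) and Cklf (0.26, SE 0.10), both at an unadjusted limma p under 0.05 (2.3% of all genes as higher). The dimmest of the 11, Cklf, lay at percentile 45.9, so 41.1% is again low for brighter genes. Within the high-Xist and between the low-Xist arrays Pf4 differed by 0.57 and 0.13, and Cklf by 0.39 and 0.0051. The list's mean difference was 0.24 and -0.069, with 9 and 7 of the 11 higher. Of 9 genes that cleave or bind chemokines, 5 were higher, and Mmp9 was lower (-0.30, SE 0.12) at an unadjusted limma p under 0.05, as were 3.98% of all genes.

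The direction of a difference was the same within the high-Xist arrays and between the low-Xist arrays in 20 of the 57 genes. Each low-Xist value rests on 1 array against 1 and has no error.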

How the data were processed

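Biotin-labelled RNA from flash-frozen muscle was hybridised to 6 Affymetrix arrays, per the labels' protocols. The authors deposited 1 intensity per probe set and array, made by RMA in Affymetrix Power Tools per the submitters' processing notes (versions: not given in the sources used here). Because the deposited intensity scale is linear, log2 was taken, as planned, with no pseudocount or filter. RMA draws dim probe sets together and can understate their differences. Here the dimmest 30% of genes also had a median difference of -0.080, beside -0.026 for all genes. After a second quantile normalization that median was -0.0033, and the dim genes Cxcl15 and Ccl1 differed by -0.21 and -0.14. A printed difference of a dim gene is thus not always understated. Of 24922 probe sets, 21425 had 1 symbol; the one with the highest mean stood for each gene.

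Groups were taken from the treatment labels. All 19752 genes were fitted with limma 3.58.1 in R 4.3.3 (two-sided, Benjamini-Hochberg, threshold 0.05), and the fit was tested on simulated data. Lists were compared by exact two-sided permutation, and pairs by exact permutation of 720 pairings with scipy 1.17.1. Members and lists were chosen with earlier results of these data known. Values on every array are given for the 10 genes with the smallest p, the 3 with the highest mean and a fixed set; Ccl3 and the members named by role with their difference were added after values were seen. Alternatives covered normalization, intensity filters, weights, a variance trend with robust fitting, Xist, the numbers in the titles and leaving out each array. The deviations of same-numbered arrays correlated at 0.030, -0.0067 and -0.17 for numbers 1, 2 and 3, so the numbers were not taken to pair samples. Number 3 was nevertheless the low-Xist array in both groups, and single genes such as Cxcr4 were lowest on array 2 in both.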

Additional observations from a re-analysis of the deposited data

How the results depend on the processing

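Leaving out 1 array at a time gave 0 to 1 chemokine genes past the limma threshold, the 1 being Ccr1 without rat IgG 3, with its differences between 0.46 and 1.15. The number of higher genes ran from 19 to 28, the median difference from -0.06 to -0.0017, and the number without overlap from 5 to 16, since smaller groups overlap less often. Over 5 arrays, r ran from 0.951 to 0.990 for Ccl6 with Ccr1 and from 0.981 to 0.995 for Ccl9 with Ccr1, and the number of pairs past the adjusted threshold was 0 to 0, because fewer orderings exist. Among genes above the 50th percentile of mean intensity, where fewer genes were tested, 9 were higher and 1 had no overlap. The 4 high-Xist arrays gave a median difference of -0.073 and 23 genes without overlap, again with smaller groups. The share of all genes without overlap is not given for these alternatives. Their counts without overlap are therefore not read as a result about the chemokine genes. Without rat IgG 3 and quantile normalized again, the median was 0.038. With the title numbers as a replicate block, 0 genes passed, 20 were higher and the smallest adjusted p was 0.803, so the block changed no call.

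The sign turned in 24 of the 57 genes between the low-Xist arrays, 13 within the high-Xist arrays, 11 under a second quantile normalization, 9 with array weights and 14 without rat IgG 3 and normalized again; the cause was not tested. The values below are those of the genes named with all arrays, apart from Ccl3. Between the 2 low-Xist arrays the differences were 0.090 for Ccl1, 0.034 for Ccl22, -0.062 for Ccl5, -0.13 for Ccr2, 0.18 for Ccr4, 0.11 for Cx3cl1, 0.028 for Cx3cr1, -0.38 for Cxcl10 and -0.87 for Cxcr2. Within the 4 high-Xist arrays they were 0.19 for Ccl2, 0.18 for Cxcl5 and -0.040 for Cxcr3. Array weights gave 0.080 for Ccl2, 0.038 for Cxcl5 and -0.0063 for Cxcr3. A second quantile normalization gave 0.037 for Ccl22 and 0.024 for Ccr4. Without rat IgG 3 and normalized again, they were 0.18 for Ccl2, 0.098 for Ccl22 and 0.27 for Cxcl5. Over the fits without 1 array the range was -0.18 to 0.24 for Ccl2, -0.092 to 0.057 for Ccl22, -0.17 to 0.032 for Ccr4, -0.084 to 0.036 for Cx3cl1, -0.22 to 0.13 for Cx3cr1, -0.078 to 0.28 for Cxcl10, -0.31 to 0.14 for Cxcl5, -0.33 to 0.32 for Cxcr2 and -0.022 to 0.15 for Cxcr3. Of the alternatives run, none turned the sign of Ccr1, Ccl6, Ccl9, Ccl4, Ccrl2, Ccr7, Xcr1, Cxcr4, Cxcl12, Ccl24 or Cxcl15.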
